A study of Mus musculus with 8 samples.

Results

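The genes described are the serine proteases of the mouse testis that carry Prss, Tmprss or kallikrein (Klk) names. They were taken as every non-control probe of the array whose gene name starts with Prss, Tmprss or Klk followed by a number (or, for plasma kallikrein, by b), which gave 64 of 41174 probes. These probes carried 55 of the 27962 gene names on the array, of which 18 were Prss, 12 Tmprss and 25 Klk. RNA of whole testicular cells was compared between 4 Vrk1 mutant (VRK1-/-) and 4 wild type (VRK1+/+) male mouse samples, each described as a biological replicate and each hybridised to 1 single-colour Agilent array. Vrk1 encodes a nuclear kinase that phosphorylates serine and threonine. Not given in the sources used here are age, strain, the kind of Vrk1 allele and the animals behind each replicate, and the p-values measure the spread between these samples.

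Most of these enzymes share the trypsin fold, in which a histidine, an aspartate and a serine form the catalytic site, and most are made as inactive zymogens that another protease must cleave. Prss enzymes are secreted or anchored to the membrane by a lipid, Tmprss enzymes span the membrane with their catalytic domain outside the cell, and tissue kallikreins are secreted and are encoded side by side in a gene cluster on chromosome 7. In the testis, several Prss enzymes are made by germ cells and act on sperm, and a few mouse Klk1b kallikreins are known from Leydig cells, the steroid-producing cells between the tubules. Kallikreins and transmembrane proteases are also abundant in epididymis, salivary gland, prostate and skin.

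Both Vrk1 probes on the array were lower in the mutant, with log2 differences of -2.26 ± 0.15 and -2.06 ± 0.12 (SE), or 4.78 and 4.17-fold lower, and each remained well above background in every mutant sample. The 75th percentile of the signal was 928 to 1124 on mutant and 680 to 790 on wild type arrays, and 83.3% to 86.5% of features on mutant and 73.2% to 77.5% on wild type arrays lay well above background. Since the genotypes were run on separate slides, the slide's effect and that of the genotype cannot be told apart. In marker lists, 14 of 16 tested Sertoli genes, 5 of 9 Leydig genes and 7 of 10 macrophage genes were higher in the mutant and none lower, whereas 4 of 5 general germ cell, 6 of 9 spermatocyte and 4 of 10 spermatid genes were lower and none higher. Of 5 tested peritubular myoid genes, 0 were higher and 0 lower, with a median log2 difference of -0.05. Of 14 tested epididymis genes, 4 were higher (28.6%) and none lower, against 21.6% higher and 12.4% lower over the array with 1 probe per gene. The mean log2 level of the list was -0.21, -1.82, -2.13 and -0.51 in mutant replicates 1 to 4, against -2.32, -2.40, -2.44 and -2.76 in wild type replicates 1 to 4. Its summed signal overlapped between genotypes, at 98.1, 59.7, 48.6 and 67.0 times the 75th percentile in the mutant, against 81.0, 90.7, 82.7 and 55.6 times in wild type. The part of these shifts in the protease results was not tested. In RNA of a whole organ, fewer cells of a type and less RNA per cell cannot be told apart.

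Of the 64 probes, 51 exceeded background clearly on 4 or more of the 8 arrays and were tested, and these stood for 45 gene names. Levels are given as log2 of the ratio of the signal to the 75th percentile of its array, and a call is a limma adjusted p under 0.05 over all 33718 tested probes. In the mutant 14 serine protease probes were higher (27.5%) and 3 were lower (5.88%), while 34 did not pass. The background over all tested probes was 21.2% higher and 10.8% lower, so the share of higher calls was near that of the whole array. The median log2 difference of the tested serine protease probes was 0.23 and that of all tested probes 0.05, with 39 of 51 serine protease probes above 0. The values of the 2 genotypes did not overlap for 14 of the 51 probes (27.5%), against 35.3% of all tested probes. Dim probes of the whole array leaned upward in the mutant: 31.0% of probes with a mean log2 level under -3 were higher and 3.19% lower, against 11.2% higher and 23.0% lower among probes at 0 or above. Of the 17 serine protease probes under -3, 6 were higher and 1 lower, and of the 12 at 0 or above, 3 were higher and 1 lower.

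**Figure D1:**
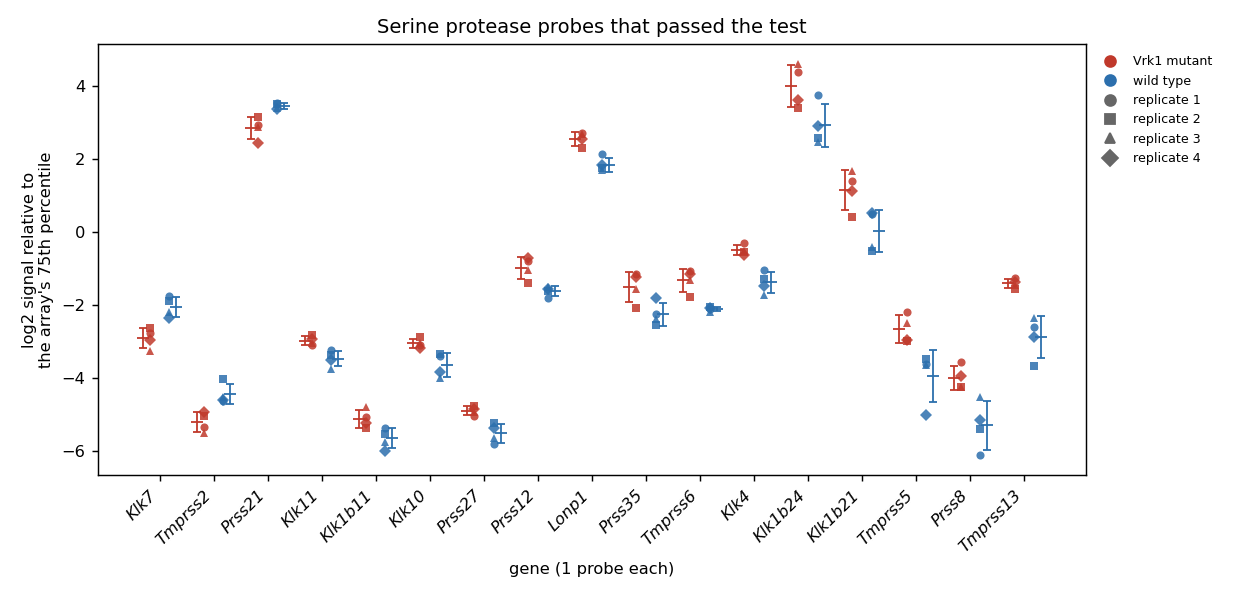
Log2 level (signal over the 75th percentile of its array) for the 17 serine protease probes that passed the test, 1 point per array, with the 4 Vrk1 mutant arrays (VRK1-/-) to the left of the 4 wild type arrays (VRK1+/+) for each gene and marker shapes for the replicates. The 3 probes that were lower in the mutant stand at the left and the 14 that were higher to their right, and the values of the genotypes do not overlap for 13 of the 17.

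The tissue kallikreins of the Klk1 group include Klk1, which releases kinin peptides from kininogens, and the rodent Klk1b genes that arose from it by duplication, among them Klk1b3 and Klk1b4, subunits of the nerve growth factor complex of the salivary gland. Of 13 tested probes of this group, 3 were higher in the mutant (Klk1b21, Klk1b24 and Klk1b11) and none lower. The 3 probes with the largest differences, Klk1b21, Klk1b24 and Klk1b27, belong to the kallikreins that have been described in mouse Leydig cells. Because these genes are close relatives, their probe sequences are shown for how alike the targets are. Letters in capitals in the Klk1b27 and Klk1b11 probes differ between these 2 probes, at 6 of 60 bases, and letters in capitals in the Klk1b24 probe differ from the Klk1b27 probe, at 6 of the 53 bases they share. The Klk1b21 probe lies in another stretch of its gene and is in lower case.
Klk1b27: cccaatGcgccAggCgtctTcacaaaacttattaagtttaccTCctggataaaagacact
Klk1b11: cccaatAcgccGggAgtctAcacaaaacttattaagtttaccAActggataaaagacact
Klk1b24: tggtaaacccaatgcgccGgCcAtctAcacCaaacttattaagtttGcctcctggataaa
Klk1b21: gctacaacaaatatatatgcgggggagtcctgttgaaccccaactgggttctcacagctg
On the forward strand of mm7, the build of the array files, these probes lie at chr7:40230425-40230484, chr7:40173583-40173642, chr7:40366158-40366217 and chr7:40278260-40278319, in that order. Of the 2016 pairs of serine protease probes, 5 matched at 80% or more of at least 40 aligned bases, and all 5 were pairs within the Klk1 group, so signal at such probes may be shared between relatives.

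Klk1b21 stood at log2 levels of 1.40, 0.41, 1.66 and 1.13 on the mutant arrays, against 0.50, -0.52, -0.41 and 0.52 on the wild type arrays. Mutant replicate 2 was the lowest of its genotype and lay below wild type replicates 1 and 4, so the groups overlapped. Its log2 difference was 1.13 ± 0.33 (SE), or 2.19-fold higher, with an adjusted p of 0.0278. Klk1b24 stood at 4.37, 3.39, 4.61 and 3.61 in the mutant, against 3.76, 2.57, 2.47 and 2.89 in wild type, a log2 difference of 1.07 ± 0.34 (SE; adjusted p = 0.0400). Here wild type replicate 1 lay above mutant replicates 2 and 4. Klk1b27 stood at 2.74, 1.63, 3.16 and 2.72 in the mutant, against 1.74, 0.95, 0.98 and 2.33 in wild type, and its log2 difference of 1.06 ± 0.38 (SE) had an adjusted p of 0.0580 and did not pass. It did pass with normexp correction (1.27, adjusted p = 0.0412), quantile normalization (1.24, adjusted p = 0.0470), cyclic loess (1.27, adjusted p = 0.0482) and array weights (1.62, adjusted p = 0.00248). With the replicate number as a block it passed too (1.06, adjusted p = 0.0168). With median scaling none of the 3 passed, with log2 differences of 0.91 for Klk1b21, 0.85 for Klk1b24 and 0.84 for Klk1b27 (adjusted p = 0.0565, 0.0823 and 0.109). Leaving out 1 array ended the Klk1b21 call in 5 of 8 fits (without mutant replicate 1, 3 or 4 or wild type replicate 2 or 3) and the Klk1b24 call in 6 of 8 (without any of these or wild type replicate 4), with adjusted p up to 0.0788 and 0.107.

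Within each genotype these 3 kallikreins varied together: mutant replicate 2 was lowest and mutant replicate 3 highest for each of them, and wild type replicates 2 and 3 were the lowest 2 of their genotype for each. This order was not particular to them. The Klk1 probe with a log2 difference of 0.58 shared it, at 0.49, -0.31, 0.58 and 0.27 in the mutant, against -0.22, -0.53, -0.45 and -0.08 in wild type. The mean log2 level of the 9 tested Leydig genes was 2.51, 1.92, 2.47 and 2.59 on the mutant arrays, against 1.69, 0.99, 1.09 and 1.62 on the wild type arrays, so that this mean too was lowest in mutant replicate 2 and in wild type replicates 2 and 3, but highest in mutant replicate 4. The summed signal of those genes, 149 to 248 times the 75th percentile in the mutant against 77.3 to 136 times in wild type, was lowest in replicate 4 of both genotypes and did not follow the kallikreins. The Sertoli and macrophage lists also had their lowest mutant mean in replicate 2, at 0.95 and -0.39. The part of Leydig cell RNA in the kallikrein differences was not tested.

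**Figure D2:**
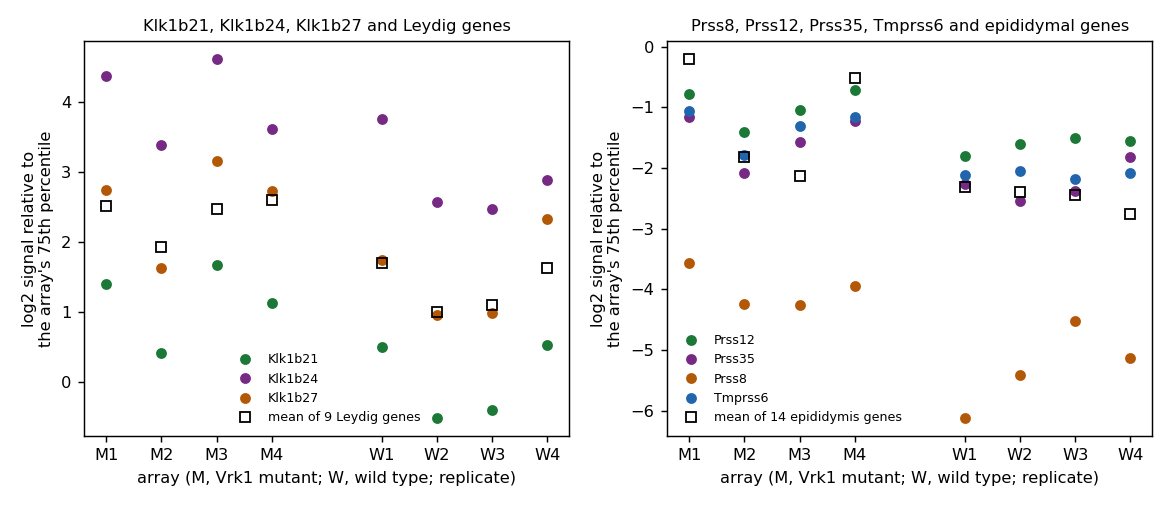
Log2 level (signal over the 75th percentile of its array) by array, with mutant replicates 1 to 4 (M1 to M4, VRK1-/-) left of wild type replicates 1 to 4 (W1 to W4, VRK1+/+). At left, filled points give Klk1b21, Klk1b24 and Klk1b27 and open squares the mean of the 9 tested Leydig genes, all at their lowest mutant value in M2. At right, filled points give Prss8, Prss12, Prss35 and Tmprss6, chosen for display after their values were seen, and open squares the mean of the 14 tested epididymis genes, which is highest in M1 and M4, as were the Sertoli, Leydig and macrophage lists.

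The other 10 probes of the Klk1 group had log2 differences between -0.11 and 0.58. Klk1b8, a close relative of Klk1, stood at 3.18, 3.24, 3.20 and 2.61 in the mutant, against 3.29, 2.96, 3.23 and 2.51 in wild type, a log2 difference of 0.06 ± 0.21 (SE; adjusted p = 0.839). Klk1b3, the gamma subunit of the nerve growth factor complex, stood at 3.08, 2.96, 2.90 and 2.15 in the mutant, against 2.92, 2.67, 2.79 and 1.98 in wild type, a log2 difference of 0.18 ± 0.26 (SE; adjusted p = 0.605). Both probes were at their lowest in replicate 4 of either genotype, as were 8 of these 10 probes in all and 17 of the 51 tested serine protease probes. The 2 probes of Klk1 itself gave log2 differences of 0.21 ± 0.26 and 0.58 ± 0.21 (SE), with adjusted p of 0.553 and 0.0586. The Klk1b11 probe passed with a log2 difference of 0.54 ± 0.18 (SE; adjusted p = 0.0470) but was well above background on no wild type array, and it met the filter on low values through the mutant arrays alone. Its levels of -5.07, -5.37, -4.79 and -5.23 in the mutant, against -5.36, -5.53, -5.74 and -5.99 in wild type, overlapped, and the log2 difference was 0.01 after normexp background correction and -0.03 with quantile normalization. The normexp correction used an offset of 50, which draws the log2 differences of dim probes toward 0. Only without wild type replicate 1 or mutant replicate 2 did the call hold among the 8 fits that left out 1 array.

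**Figure D3:**
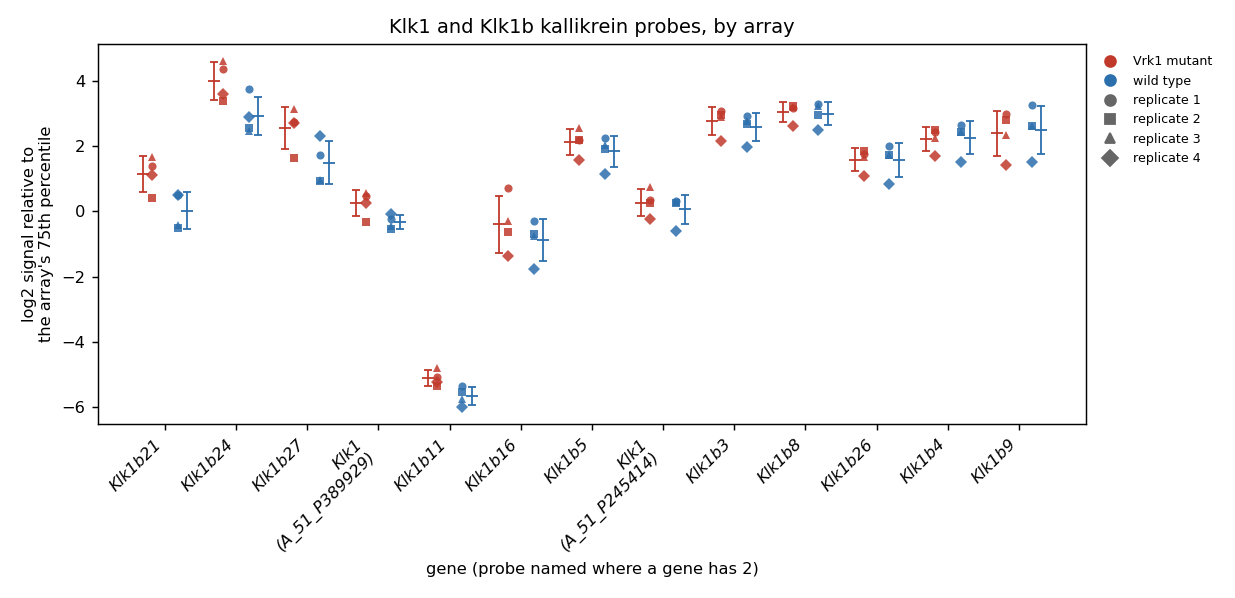
Log2 level (signal over the 75th percentile of its array) for the 13 tested Klk1 and Klk1b probes, ordered by their log2 difference, with the 4 Vrk1 mutant arrays (VRK1-/-) left of the 4 wild type arrays (VRK1+/+) for each probe and marker shapes for the replicates. Klk1b21, Klk1b24 and Klk1b27 stand at the left with log2 differences of 1.13, 1.07 and 1.06, and the other 10 lie between -0.11 and 0.58.

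The promoters of Klk1b21, Klk1b24 and Klk1b27 are shown because these genes varied together across arrays, a pattern that 1 Klk1 probe shared. Each runs from 250 bases before to 50 after the gene's start on the forward strand (RefSeq, GRCm38.p6), with the letters TTTAAA in capitals.
Klk1b21, chr7:44102042-44102341: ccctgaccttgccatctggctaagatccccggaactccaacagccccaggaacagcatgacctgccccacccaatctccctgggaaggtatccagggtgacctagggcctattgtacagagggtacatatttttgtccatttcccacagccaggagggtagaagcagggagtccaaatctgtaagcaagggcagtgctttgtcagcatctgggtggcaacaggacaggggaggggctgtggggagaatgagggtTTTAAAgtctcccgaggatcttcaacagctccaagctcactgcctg
Klk1b24, chr7:44187986-44188285: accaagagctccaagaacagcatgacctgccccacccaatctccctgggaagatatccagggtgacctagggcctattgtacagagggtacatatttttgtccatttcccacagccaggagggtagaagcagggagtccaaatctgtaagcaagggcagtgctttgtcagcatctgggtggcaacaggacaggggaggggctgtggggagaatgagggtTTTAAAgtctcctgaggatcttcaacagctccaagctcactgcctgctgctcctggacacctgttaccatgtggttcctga
Klk1b27, chr7:44052040-44052339: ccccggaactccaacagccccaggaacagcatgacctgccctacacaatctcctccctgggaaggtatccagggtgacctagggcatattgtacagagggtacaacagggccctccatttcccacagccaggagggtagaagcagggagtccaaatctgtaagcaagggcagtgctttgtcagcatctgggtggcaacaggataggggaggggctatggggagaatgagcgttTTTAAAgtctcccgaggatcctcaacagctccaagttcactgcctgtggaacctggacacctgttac
TTTAAA, which is its own reverse complement, was in all 13 Klk1b promoters of the RefSeq table, also in those whose probes did not differ, against 13.2% of 32851 promoters, and TATAAA, searched on both strands, was in none of the 13, against 13.6%. The Klk1 promoter did not hold TTTAAA. In the printed sequences the letters lie before the gene's start in Klk1b24 and Klk1b27 and after it in Klk1b21. In gapped alignments of the 13 Klk1 and Klk1b promoters of the genes on the array, the 3 printed here were 91.3% to 97.7% identical to each other, each was 80.5% to 88.1% identical to the others, and the others were 77.1% to 92.8% identical among themselves. These are descriptions of the sequences, and no binding was measured.

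The kallikreins from Klk4 to Klk15 are known mostly from skin, tooth and glands. Of their 8 tested probes, 3 were higher in the mutant and 1 was lower. Klk4, which degrades the enamel matrix in teeth, stood at -0.31, -0.54, -0.53 and -0.64 in the mutant, against -1.05, -1.28, -1.73 and -1.47 in wild type. All 4 mutant arrays lay above all wild type arrays, and the log2 difference of 0.88 ± 0.17 (SE; 1.84-fold; adjusted p = 0.00617) passed in every fit that left out 1 array. Klk10 stood at -3.09, -2.89, -3.04 and -3.19 in the mutant, against -3.39, -3.33, -4.00 and -3.84 in wild type, a log2 difference of 0.59 ± 0.18 (SE; adjusted p = 0.0325). Klk11, found in skin and brain, stood at -3.11, -2.81, -3.04 and -2.94 in the mutant, against -3.24, -3.37, -3.75 and -3.51 in wild type, a log2 difference of 0.50 ± 0.15 (SE; adjusted p = 0.0318). The genotypes did not overlap for either probe, yet each lost its call in 6 of 8 fits without 1 array, all but those without wild type replicate 1 or 2 for Klk10 and without wild type replicate 1 or 4 for Klk11. The log2 differences after normexp correction were 0.08 and 0.06.

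Klk7, a chymotrypsin-like enzyme of the outer skin, had 3 probes that gave different pictures. The probe at chr7:39988715-39988961 (mm7, forward strand), whose ends lie further apart on the genome than its 60 bases, stood at -2.78, -2.62, -3.27 and -2.97 in the mutant, against -1.76, -1.89, -2.18 and -2.36 in wild type. All mutant arrays lay below all wild type arrays, and the log2 difference was -0.86 ± 0.19 (SE; 1.81-fold lower; adjusted p = 0.0104). A second probe at chr7:39991574-39991633, with a log2 difference of 0.23 ± 0.15 (SE; adjusted p = 0.247), was well above background on no wild type array, and the remaining probe was not well above background on any array. Klk15, at -2.46, -2.23, -2.28 and -2.36 in the mutant, against -1.97, -1.86, -2.11 and -2.26 in wild type, had a log2 difference of -0.28 ± 0.14 (SE; adjusted p = 0.137). It passed with median scaling (adjusted p = 0.0187), quantile normalization (adjusted p = 0.0342) and cyclic loess (adjusted p = 0.0424).

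Among the transmembrane Tmprss enzymes, 3 of 10 tested probes were higher in the mutant and 1 was lower. Tmprss13, a membrane protease of epithelia, stood at -1.27, -1.55, -1.46 and -1.36 in the mutant, against -2.60, -3.67, -2.37 and -2.88 in wild type. The mutant arrays lay close together and above every wild type array, and the log2 difference of 1.47 ± 0.25 (SE; 2.77-fold; adjusted p = 0.00426) was the largest among the tested serine protease probes. It passed in all 8 fits without 1 array and with each of normexp, quantile, median and cyclic loess processing. Tmprss6, which cleaves hemojuvelin in the liver and so restrains hepcidin, stood at -1.07, -1.78, -1.31 and -1.16 in the mutant, against -2.12, -2.05, -2.18 and -2.08 in wild type, a log2 difference of 0.78 ± 0.17 (SE; adjusted p = 0.00996) that also passed in all 8 such fits. The 4 wild type arrays lay within a narrow range and below every mutant array.

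Tmprss5, known as spinesin from the spinal cord, stood at -2.19, -2.99, -2.50 and -2.96 in the mutant, against -3.62, -3.49, -3.64 and -5.01 in wild type. Its log2 difference was 1.28 ± 0.34 (SE; adjusted p = 0.0201), without overlap, and the call was lost without mutant replicate 1 or 3 (adjusted p = 0.0590 and 0.0565). Tmprss2, an androgen-regulated protease of the prostate, had a probe at chr16:97948843-97948902 (mm7, reverse strand) that stood at -5.35, -5.04, -5.51 and -4.94 in the mutant, against -4.63, -4.03, -4.51 and -4.59 in wild type. That probe was lower without overlap (log2 difference -0.77 ± 0.19, SE; 1.70-fold; adjusted p = 0.0153). The other Tmprss2 probe, at chr16:97949858-97950788, had a log2 difference of 0.27 ± 0.18 (SE; adjusted p = 0.272), so the 2 probes of the gene had opposite signs. Such opposite signs were seen for 5 of the 6 genes with more than 1 tested probe (Klk7, Tmprss2, Prss3, Prss23 and Tmprss15), with Klk1 as the exception, although 1 Tmprss15 probe was at 0.00 and Prss23 differed by less than its errors.

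Of the 17 tested probes of secreted or anchored Prss enzymes other than Prss21, 4 were higher in the mutant and none lower. Prss8, or prostasin, a lipid-anchored protease that activates the epithelial sodium channel, stood at -3.56, -4.25, -4.26 and -3.95 in the mutant, against -6.12, -5.41, -4.52 and -5.14 in wild type. The genotypes did not overlap, and the log2 difference of 1.29 ± 0.31 (SE; 2.45-fold; adjusted p = 0.0145) passed in all 8 fits without 1 array. It was well above background on 4 mutant and 2 wild type arrays, 1 wild type value was at the floor, and after normexp correction the difference was 0.32 (adjusted p = 0.0991). Prss12, or neurotrypsin, which cleaves agrin at synapses, stood at -0.79, -1.40, -1.05 and -0.72 in the mutant, against -1.81, -1.61, -1.51 and -1.55 in wild type, a log2 difference of 0.63 ± 0.17 (SE; adjusted p = 0.0229) without overlap. Leaving out mutant replicate 1, 3 or 4 ended that call, with adjusted p from 0.0523 to 0.0634.

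Prss35, a relative of the trypsins that lacks the catalytic serine, stood at -1.16, -2.08, -1.57 and -1.23 in the mutant, against -2.26, -2.55, -2.38 and -1.82 in wild type. Mutant replicate 2 lay below wild type replicate 4, and the log2 difference of 0.74 ± 0.23 (SE; adjusted p = 0.0366) lost its call in 6 of 8 fits without 1 array, all but those without mutant replicate 2 or wild type replicate 4. For Prss8, Prss12, Prss35 and Tmprss6, mutant replicates 1 and 4 were the highest 2 arrays. The same held for Tmprss13, at -1.27 and -1.36 there, against -1.55 and -1.46 in mutant replicates 2 and 3. Without both arrays its log2 difference was 1.37 (limma adjusted p = 0.0687). These are also the 2 arrays on which the mean log2 level of the epididymis list was highest. The Sertoli list, at 1.42, 0.95, 1.29 and 1.37 in mutant replicates 1 to 4, and the macrophage list, at 0.67, -0.39, 0.16 and 0.30, were also highest there, as was the Leydig list. Prss8, Prss12, Prss35 and Tmprss6 were grouped for this pattern, which is therefore a description. Without both arrays the log2 differences of these 4 probes were 1.05, 0.40, 0.43 and 0.56, with adjusted p of 0.144, 0.181, 0.285 and 0.0994. In that smaller limma fit 0 serine protease probes passed, although 11 higher and 3 lower had an unadjusted p under 0.05. There, 3.91% of all tested probes were higher and 0.652% lower, and all 14 higher probes were still above 0 and all 3 lower probes still below 0. The part of RNA from any of these cell types in the differences was not tested.

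Prss27, or marapsin, was near background, at -5.05, -4.78, -4.92 and -4.84 in the mutant, against -5.81, -5.23, -5.64 and -5.38 in wild type. Its log2 difference of 0.62 ± 0.16 (SE; adjusted p = 0.0182) became 0.01 after normexp correction, whose offset draws dim probes toward 0. The probe was well above background on 1 wild type array. Without wild type replicate 3 its adjusted p was 0.0532. Prss36, or polyserase-2, stood at 0.17, -0.23, 0.06 and -0.22 in the mutant, against -0.30, -0.30, -0.44 and -0.66 in wild type, which did not overlap, but its log2 difference of 0.37 ± 0.15 (SE) had an adjusted p of 0.0857. Prss22 had a log2 difference of 0.14 ± 0.14 (SE; adjusted p = 0.456). Prss23, a secreted protease known from the ovary, had probes at -0.06 ± 0.18 and 0.12 ± 0.26 (SE; adjusted p = 0.813 and 0.740). The probes of Prss3, a trypsin, gave 0.36 ± 0.19 and -0.54 ± 0.25 (SE; adjusted p = 0.168 and 0.115).

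Prss21, or testisin, is a lipid-anchored protease of germ cells and sperm that takes part in sperm maturation, and it was the germ cell enzyme that carried a Prss number on the array. Its probe at chr17:22052768-22052827 (mm7, forward strand) is printed because it was the 1 germ cell protease probe under the naming rule.
Prss21: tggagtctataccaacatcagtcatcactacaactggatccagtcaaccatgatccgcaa
Prss21 stood at log2 levels of 2.94, 3.14, 2.87 and 2.43 in the mutant, against 3.54, 3.50, 3.40 and 3.37 in wild type. All 4 mutant arrays lay below all 4 wild type arrays, and mutant replicate 4 was the lowest. The log2 difference was -0.61 ± 0.17 (SE), or 1.52-fold lower, with an adjusted p of 0.0223. The call held with normexp correction (-0.43, adjusted p = 0.0286) and median scaling (-0.83, adjusted p = 0.00844). It did not hold with quantile normalization (-0.35, adjusted p = 0.112) or cyclic loess (-0.32, adjusted p = 0.114), nor without wild type replicate 2 or mutant replicate 3 (adjusted p = 0.0539 and 0.0544).

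Other germ cell proteases that now have Prss or Tmprss names carried older names on the array and fell outside the naming rule. In this list of 16 genes with 19 tested probes, 7 probes were lower in the mutant and none higher, against 10.8% lower and 21.2% higher over all tested probes, and the median log2 difference was -0.54. Prss43, a membrane protease of spermatogenic cells, stood at -0.03, 0.45, 0.27 and -0.03 in the mutant, against 1.08, 0.84, 0.93 and 1.09 in wild type, a log2 difference of -0.82 ± 0.15 (SE; adjusted p = 0.00559). Prss37, needed for sperm migration into the oviduct in mice, stood at 6.41, 6.32, 5.97 and 5.96 in the mutant, against 6.98, 7.06, 7.05 and 6.58 in wild type, a log2 difference of -0.75 ± 0.17 (SE; adjusted p = 0.0117). For both genes every mutant array lay below every wild type array. The Prss43 call held with normexp correction and quantile normalization, whereas that of Prss37 did not (-0.31, adjusted p = 0.0822, and -0.35, adjusted p = 0.0973). Prss45, Prss44, Prss58, Tmprss12 and 1 of 2 Prss42 probes were also lower, by log2 differences from -0.48 to -0.60. Of the 7 calls, 5 held with normexp correction and 4 with quantile normalization. The general germ cell, spermatocyte and spermatid lists moved the same way, and their part in these results was not tested.

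The name Prss15 on the array belongs to the gene now called Lonp1, the Lon protease of mitochondria, which degrades misfolded matrix proteins and does not have the trypsin fold. Lonp1 stood at 2.71, 2.29, 2.67 and 2.55 in the mutant, against 2.12, 1.74, 1.69 and 1.82 in wild type, and the groups did not overlap. Its log2 difference of 0.71 ± 0.15 (SE; 1.64-fold; adjusted p = 0.00979) passed in all 8 fits without 1 array and with normexp, quantile, median and cyclic loess processing. Klkb1, plasma kallikrein of the liver, had a log2 difference of -0.23 ± 0.16 (SE; adjusted p = 0.278). The array names Prss7 and Tmprss8 belong to Tmprss15, or enteropeptidase, and to Prss30, and none of their probes passed.

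The 13 probes that were not tested were those of Klk1b1, Klk5, Klk6, Klk9, Klk12, Prss16, Tmprss11b, Tmprss11d, Tmprss11e and Tmprss11f, together with 1 Klk7 probe. Of these, Klk1b1 was well above background on 3 mutant and no wild type arrays, 1 Prss16 probe on 2 mutant arrays and 1 Tmprss11f probe on 1 mutant array. The remaining 10 were well above background on no array.

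**Figure D4:**
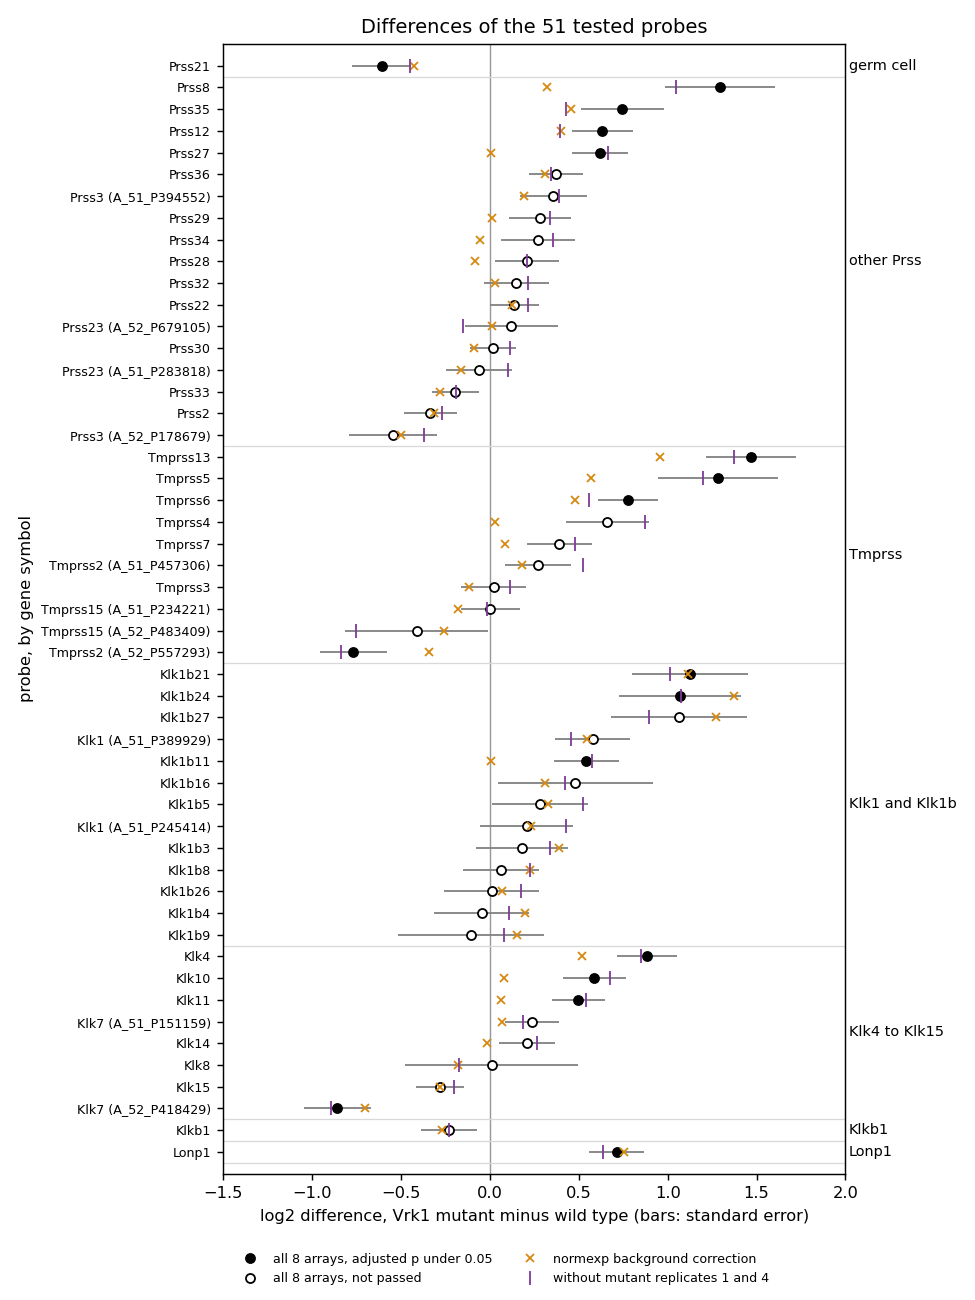
Log2 difference, Vrk1 mutant (VRK1-/-) minus wild type (VRK1+/+), of the 51 tested serine protease probes, grouped by role, with standard error bars. Filled points passed at an adjusted p under 0.05 and open points did not, crosses give the difference after normexp background correction, and ticks the difference without mutant replicates 1 and 4. For Prss27 and Klk1b11 the crosses lie at 0.01, and the 14 probes higher with all arrays keep ticks above 0.

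Background correction and scaling moved several of these calls. Normexp correction added an offset of 50 to every signal before quantile normalization, which draws the log2 differences of dim probes toward 0. For such probes, a small difference after normexp correction cannot be put down to background alone. Of the 14 higher probes, 8 passed with normexp correction, 7 with quantile normalization, 6 with median scaling and 7 with cyclic loess, and 4 passed with all of these (Tmprss13, Tmprss6, Klk4 and Lonp1). The background moved as well: of all tested probes, 12% were higher and 10.9% lower with normexp correction, 13.1% and 10% with quantile normalization, 13.3% and 26.0% with median scaling, and 13.4% and 8.92% with cyclic loess. The median log2 difference of all tested probes was 0.05 with 75th percentile scaling, and it was -0.16 with median scaling, -0.05 with normexp correction, -0.06 with quantile normalization and -0.04 with cyclic loess, so each log2 difference is to be read against that of its own scaling.

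Proteases act with inhibitors, substrates and receptors, and lists of these were examined with 1 probe per gene, for which the background was 21.6% higher and 12.4% lower. Of 42 tested proteases of the trypsin fold with other names, 11 were higher in the mutant and 3 lower. Complement C2 stood at 3.79, 3.05, 3.62 and 3.75 in the mutant, against 2.68, 1.94, 1.89 and 2.55 in wild type (log2 difference 1.29 ± 0.24, SE; adjusted p = 0.00544). Plau, the urokinase plasminogen activator, was higher by 0.83 ± 0.15 (SE; adjusted p = 0.00555), though by 0.18 after normexp correction (adjusted p = 0.0929). Mcpt1, a mast cell protease, had a log2 difference of -0.82 ± 0.13 (SE; adjusted p = 0.00326), and of -0.32 after normexp correction (adjusted p = 0.0211). Mcpt4 was lower as well (-0.57, adjusted p = 0.0432). Tpsab1 and Tpsg1 were higher (0.69 and 1.03, adjusted p = 0.0117 and 0.0133), though by 0.08 and 0.01 after normexp correction. Tpsab1 was well above background on 4 mutant and 0 wild type arrays, so it met the filter through the mutant arrays alone. Tpsg1 was so on 4 mutant and 2 wild type arrays. Of the 7 tested mast cell markers 3 were higher and none lower, with summed signals of 5.0 to 8.2 times the 75th percentile in the mutant, against 4.0 to 5.2 times in wild type. That sum was mostly the signal of Hdc, which did not pass (adjusted p = 0.328). Of the 3 higher markers, Kit held its call with normexp correction (adjusted p = 0.00551), and Ms4a2 and Cma1 did not (adjusted p = 0.184 and 0.168). Kit is also a gene of differentiating spermatogonia, so in testis RNA it does not mark mast cells alone. Cma1 and Tpsb2 were on both the marker list and the protease list, so these counts share values. The part of mast cell RNA in these values was not tested.

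Of 22 tested serine protease inhibitors, 9 were higher in the mutant and 3 lower. Serpina3n, which inhibits chymotrypsin-like enzymes, stood at -0.67, -1.96, -1.52 and -0.55 in the mutant, against -4.88, -5.46, -5.54 and -3.88 in wild type. The groups lay far apart, with a log2 difference of 3.76 ± 0.42 (SE; adjusted p = 0.000713). Mutant replicates 1 and 4, on which the epididymis, Sertoli, Leydig and macrophage lists had their highest mean log2 levels, were again the highest. Without those 2 arrays the log2 difference was 3.20 (adjusted p = 0.0240). Wfdc2, a small secreted protein with inhibitor-like domains, was higher by 1.31 ± 0.19 (SE; adjusted p = 0.00226), and Spink10, a Kazal-type inhibitor, had a log2 difference of -1.02 ± 0.14 (SE; adjusted p = 0.00196). After normexp correction these were 0.53 and -0.45 (adjusted p = 0.0126 and 0.00741).

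Of 19 tested substrates, receptors and partners, 4 were higher and 5 lower. Igfbp3, a carrier of insulin-like growth factors that several kallikreins cleave, stood at -2.05, -2.55, -1.93 and -1.58 in the mutant, against -5.00, -4.57, -4.13 and -4.43 in wild type. Its log2 difference was 2.51 ± 0.24 (SE; adjusted p = 0.000402), with every mutant array above every wild type array, and it was 2.30 without mutant replicates 1 and 4 (adjusted p = 0.0161). After normexp correction it was 1.26 (adjusted p = 0.00358). Scnn1b, a subunit of the sodium channel that prostasin activates, was higher by 0.77 ± 0.15 (SE; adjusted p = 0.00760), though by 0.13 after normexp correction (adjusted p = 0.244). F2rl3, a receptor that thrombin opens by cleavage, had a log2 difference of -0.75 ± 0.17 (SE; adjusted p = 0.0120).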

How the data were processed

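RNA of whole testicular cells from 4 Vrk1 mutant and 4 wild type samples was measured on single-colour Agilent arrays, and groups came from the labels. Per the submitters' processing notes, the scans were read with Agilent Feature Extraction 9.5.3.1. The deposited intensity values are the processed signals, background-subtracted and detrended within each array per the file headers, and the mean and local background intensities were deposited beside them. The deposited value table of the series equalled the processed signals at all 45018 features of every array within a relative tolerance of 1e-04.

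Non-control signals were scaled to the 75th percentile of their array, values under 0.0144 were set to that floor, and log2 was taken. Spots with an outlier mark were dropped, and repeat spots of a probe (10 each for 245 probes) were averaged. The 33718 tested probes had a signal well above background on 4 or more arrays and 3 or more values per group. Because the rule picks probes, each probe was tested on its own by limma 3.58.1 under R 4.3.3, using lmFit and eBayes with no term but genotype. Tests were two-sided, and p-values were adjusted by the Benjamini-Hochberg method over all tested probes, with a threshold of 0.05. The fit was tested on simulated data. The number of arrays limits the precision.

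Names were updated by RefSeq accession for 57 of the 64 probes, by current symbol for 6 and by synonym for 1. Named probes were all that passed, the 3 of each role list with the highest mean level, and 9 genes chosen whatever their result. Prss36 and Klk15 qualified by level, and Prss8, Prss12, Prss35 and Tmprss6 were grouped after their values were seen. Context lists gave their 3 members with the smallest p. The members, lists and alternatives were chosen with earlier results of these data known. Alternatives covered background correction, scaling, filter, floor, array weights, 1 probe per gene, a replicate block and the arrays left out. Normexp background correction used an offset of 50 and was followed by quantile normalization.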

Additional observations from a re-analysis of the deposited data

Results flagged for a closer look

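In the 60 groups of 4 arrays examined for the named probes, 4 arrays stood apart from the other 3 of their genotype by more than the critical value of Dixon's test, which chance gives in about 1 in 20 groups. For Klk1b8, mutant replicate 4 was at a log2 level of 2.61, against 3.18 to 3.24 on the other mutant arrays. Wild type replicate 4 stood apart for the other 3 probes. It was at -5.01 for Tmprss5, against -3.64 to -3.49 on the other wild type arrays, and at -1.70 for the Prss3 probe with the negative difference, against -0.84 to -0.71. For the Prss23 probe with the positive difference it was at -1.31, above the -2.27 to -2.20 of the others.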

How the results depend on the processing

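With all arrays, 14 serine protease probes were higher and 3 lower, with a median log2 difference of 0.23, and 7160 probes of the whole array were higher and 3655 lower. With normexp background correction and quantile normalization, 9 serine protease probes were higher and 5 lower (median 0.068), with 4040 probes higher in all. Median scaling gave 6 higher and 8 lower (median 0.055), with 4486 higher and 8757 lower in all. Quantile normalization gave 8 higher and 5 lower (median 0.087; 4405 higher in all), and cyclic loess 8 higher (median 0.13; 4523 higher in all). Spike-in scaling left 1738 probes of the whole array lower, array weights gave 7 serine protease probes and 7940 of all probes lower, and no filter on dim probes gave a median of 0.16. In limma's test without mutant replicates 1 and 4, 0 serine protease probes were higher and 0 lower (median 0.34), and 1319 of all probes were higher and 220 lower. The cause of these changes was not tested. The last fit also had fewer arrays, and their number and which arrays were left out cannot be told apart.

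Leaving out 1 array gave 6 to 14 serine protease probes higher and 2 to 5 lower, medians from 0.16 to 0.33, and 4782 to 7358 probes higher and 1666 to 4411 lower in all. The count of higher serine protease probes was 6 without mutant replicate 1 or 3, 8 without mutant replicate 4 or wild type replicate 3, and 9 without wild type replicate 2, and the count of lower ones was 5 without wild type replicate 4. For the 30 named probes, 459 of 592 comparisons kept sign and side of the threshold, 98 kept sign and lost the call, 19 kept sign and gained one, and 16 changed sign. Of these 16, 1 was of a probe that had passed, Klk1b11, at -0.028 with quantile normalization (adjusted p = 0.933). The other 15 had no call under either setting and came from 6 probes of Klk1b3, Klk1b8, Klk7, Prss22 and Prss23, with values between -0.36 and 0.10 after the change.

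The replicate numbers were not taken to pair the samples, since the correlation of deviations within a number was 0.279, 0.235, 0.0904 and 0.609 for numbers 1 to 4, not over 0.1 for each. Between different numbers it ranged from -0.334 to 0.196. Each mutant replicate still correlated most with the wild type replicate of its own number. Wild type replicate 3 correlated more with mutant replicate 2 (0.196) than with mutant replicate 3. What the numbers stand for is not given in the labels. With the replicate number as a block, 18 serine protease probes were higher and 4 lower, with 9242 probes higher and 5913 lower in all. A slide block was not run because each genotype lay on its own slide. Signal near background limits Klk1b11, Prss27 and Prss8.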
